A study of Sus scrofa with 21 samples.

Results

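The genes described here were 10 smooth muscle and matrix genes of the pig testis: MYOCD, ELN, ACTA2, MYH11, CNN1, TAGLN, DES, MYLK, LMOD1 and SMTN. They were taken by symbol from the 25880 genes counted in each library, and each symbol matched 1 Ensembl gene. MYOCD (ENSSSCG00000031988) and ELN (ENSSSCG00000025858) had been picked because they were among the genes with the strongest decrease in Landrace boars with high hyperactivity on the day of ejaculation (day 0). The values of all 10 genes in that contrast are therefore given as a description, with the calls of the fit over all genes given as counts that support nothing, and the tests below concern the other comparisons.

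RNA was sequenced from testis tissue of 21 AI boars without any labelled treatment, 1 library per boar, of which 13 were purebred Norwegian Landrace and 8 were purebred Duroc. The study asked which testis genes differ between boars whose sperm show much or little hyperactive motility, the vigorous asymmetrical swimming of sperm ready to fertilize. In Landrace, boars L1 to L4 were labelled Low_d0 and L5 to L8 High_d0, for low or high hyperactivity in fresh semen, while L2, L9, L10 and L12 were labelled Low_d4_0 and L7, L13 and L15 High_d4_0, for a low or high change in hyperactivity between day 0 and day 4 of storage. In Duroc, boars D1 to D5 were labelled High and D6, D7 and D9 Low. L2 and L7 belonged to 2 Landrace groups each, so the day 0 and storage contrasts shared these boars. For most Duroc boars the labels and the description of the study name opposite groups, and the groups used here, and with them the sign of the Duroc contrast, rest on the labels. The sequencing depths that the study lists for its high Duroc boars follow the read counts of the boars labelled High, not those of the boars of the same name. The labels gave no ages.

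Peritubular myoid cells are flat contractile cells that wrap each seminiferous tubule, and their contractions move sperm and fluid towards the rete testis. Like vascular smooth muscle cells, they carry bundles of smooth muscle actin and myosin together with the proteins that steady and regulate these filaments. Myocardin, the product of MYOCD, is a coactivator of serum response factor that switches on smooth muscle genes, and elastin, the product of ELN, gives the walls of tubules and vessels their recoil. Because the tissue was sequenced in bulk, fewer cells of a type and less RNA per cell cannot be told apart.

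The libraries held 41358671 to 125576407 reads counted to genes. All 10 genes were detected in all 21 boars, with the smallest count, 1 read, for LMOD1 in boar L8. Levels are given as CPM, read counts per library size after scaling by the TMM method, which corrects for differences in library composition. The TMM factors were lowest in L8 (0.842) and D2 (0.859) and highest in L3 (1.106) and D1 (1.095). They ranged from 1.008 to 1.106 in the Low_d0 and from 0.842 to 1.014 in the High_d0 boars. L8, D2, L3 and D1 also stood at the ends of the range for many of the 10 genes, and the part of library composition in this was not tested. In the annotation of Sscrofa11.1, MYOCD lies on chromosome 12 from 56931628 to 57029258, ELN on chromosome 3 from 11214194 to 11245891 and ACTA2 on chromosome 14 from 100868145 to 100886732.

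The identity of the gene listed as MYH11 was uncertain. Its identifier, ENSSSCG00000000146, is the next in number after that of MYH9 (ENSSSCG00000000145), the non-muscle myosin heavy chain, which RefSeq places on chromosome 5, whereas RefSeq places MYH11 on chromosome 3. Across the 21 boars, with each breed centred on its own mean, this identifier correlated with TAGLN at r = 0.947, with ACTA2 at r = 0.916 and with MYH9 at r = 0.877. It is called MYH11 here as the symbol table gives it, and counts are also given without it.

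MYOCD, the transcriptional coactivator, differed widely between Landrace boars. In the Low_d0 boars L1 to L4 its levels were 10.8, 10.8, 14.8 and 5.02 CPM. In the High_d0 boars L5 to L8 they were 2.46, 1.44, 2.08 and 3.35 CPM. The groups did not overlap, with means of 10.4 ± 4.03 CPM (SD, n = 4) and 2.33 ± 0.799 CPM (SD, n = 4), and the log2 fold change of high over low was -2.14 (SE 0.34). The remaining Landrace boars spread over most of this range, but none lay as low as L5, L6 or L7. Their levels were 13.5 CPM in L9, 3.54 in L10, 5.03 in L12, 2.57 in L13 and 15.5 in L15. L15, a High_d4_0 boar, had the highest level of the 21 boars, and L6 had the lowest. In Duroc the levels were 3.31, 1.96, 3.03, 6.50 and 3.87 CPM in the High boars D1 to D5 and 4.56, 3.02 and 6.42 CPM in the Low boars D6, D7 and D9. The Duroc boars thus spanned 3.32-fold, against 10.7-fold in Landrace. Ordered by mean level, the groups were Low_d0 (10.4 CPM), Low_d4_0 (8.24), High_d4_0 (6.71), Duroc Low (4.67), Duroc High (3.73) and High_d0 (2.33), and each overlapped with its neighbour in this order.

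**Figure D1:**
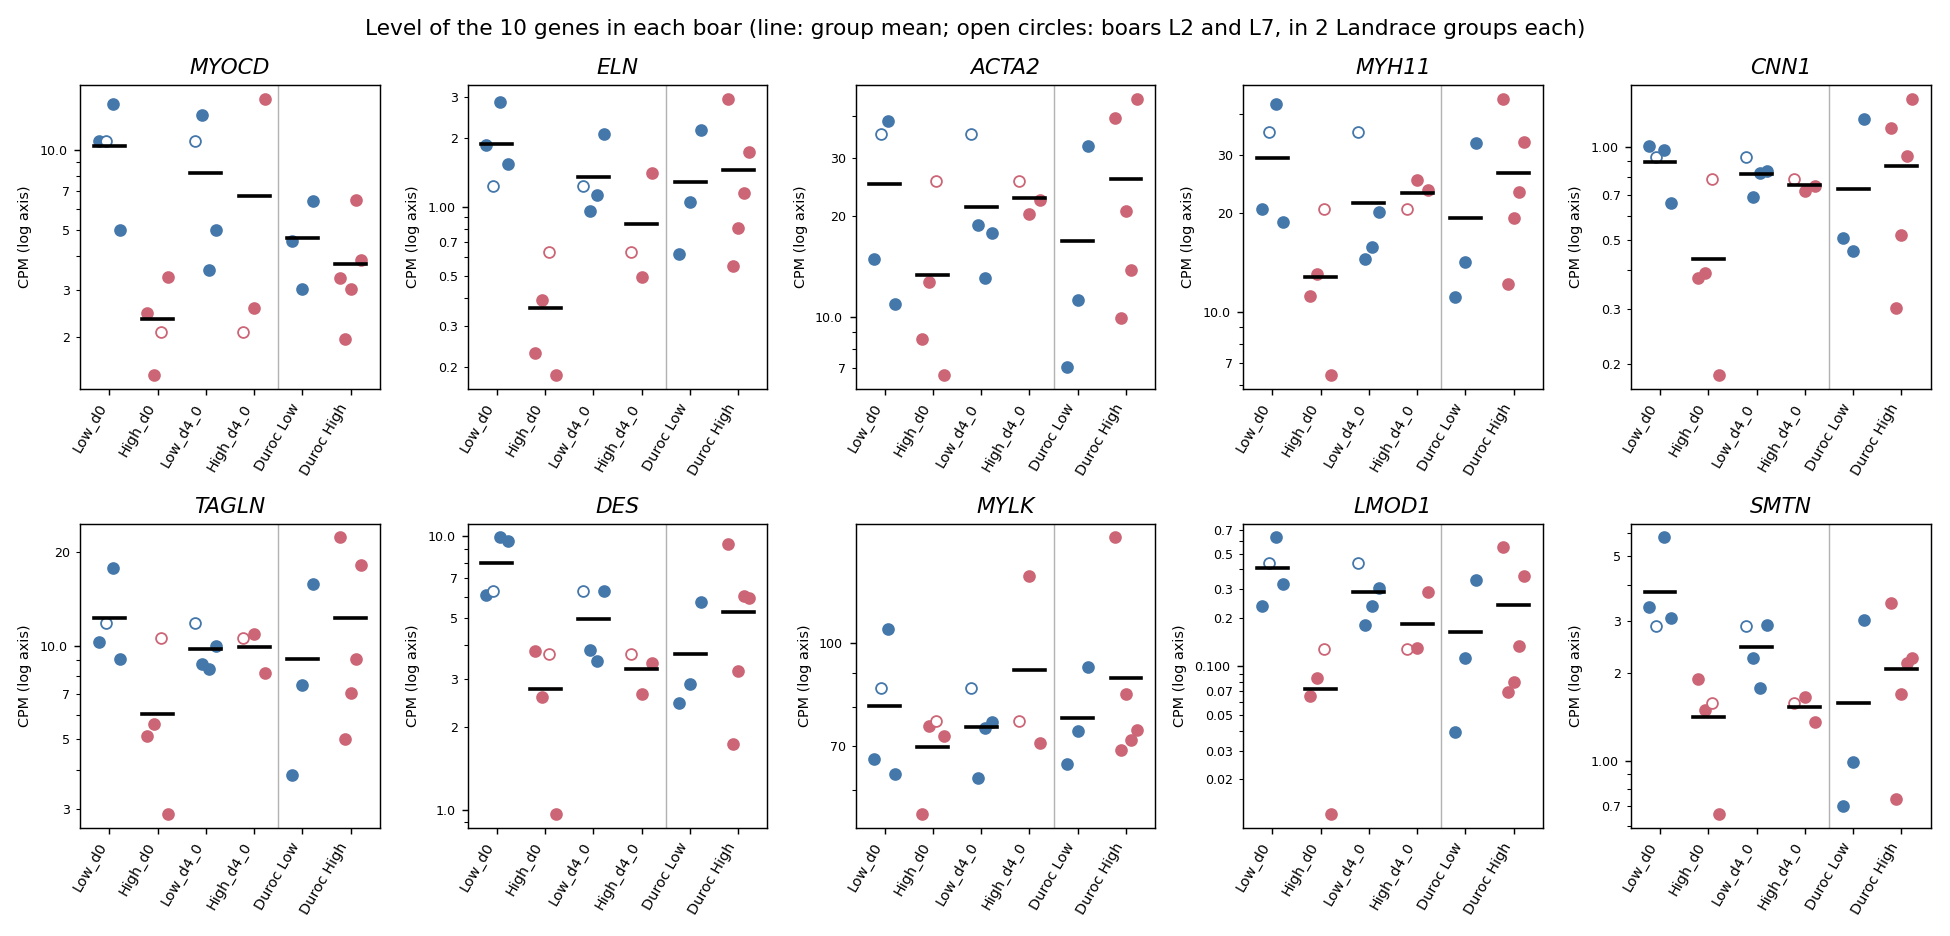
CPM of each of the 10 genes (log axis) in every boar, by group, with blue points for low and red points for high groups, black lines for group means and open circles for L2 and L7, which belong to 2 groups. For MYOCD, ELN, DES, SMTN and LMOD1 every High_d0 boar lies below every Low_d0 boar, while for the other 5 genes these groups overlap. High_d4_0 overlaps with Low_d4_0 in every gene but SMTN, and Duroc High with Duroc Low in every gene.

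ELN, the elastin gene, was sparsely expressed, with 14 to 241 reads per library. Its levels were 1.85, 1.23, 2.86 and 1.54 CPM in the Low_d0 boars L1 to L4 and 0.230, 0.392, 0.635 and 0.184 CPM in the High_d0 boars L5 to L8. The groups did not overlap, and the log2 fold change was -2.34 (SE 0.44). The 5 other Landrace boars lay between 0.495 CPM in L13 and 2.08 CPM in L12. The Duroc boars ranged from 0.552 CPM in D2 to 2.96 CPM in D1, which was the highest level of all boars. D1 and D2 carry the same High label.

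Desmin (DES), the intermediate filament of muscle cells, and smoothelin (SMTN), an actin-binding protein of contractile smooth muscle, were also lower in each High_d0 boar than in each Low_d0 boar. DES stood at 6.10, 6.30, 9.88 and 9.58 CPM in L1 to L4 and at 3.79, 2.59, 3.71 and 0.967 CPM in L5 to L8, a log2 fold change of -1.50 (SE 0.38). SMTN stood at 3.35, 2.89, 5.80 and 3.07 CPM in L1 to L4 and at 1.90, 1.50, 1.58 and 0.661 CPM in L5 to L8, a log2 fold change of -1.40 (SE 0.36). In both genes L3 was the highest and L8 the lowest of the 21 boars. LMOD1, which encodes the actin filament nucleator leiomodin 1, had 13 to 53 reads in the Low_d0 boars (0.238 to 0.629 CPM) and 1 to 12 reads in the High_d0 boars (0.0122 to 0.129 CPM). These groups did not overlap either, but at so few reads the size of the difference is poorly defined.

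The actin and myosin genes differed less and overlapped between the day 0 groups. ACTA2, which encodes smooth muscle alpha-actin, was at 14.9, 35.4, 38.8 and 10.9 CPM in L1 to L4 and at 8.58, 12.7, 25.5 and 6.69 CPM in L5 to L8. The High_d0 boar L7 thus exceeded the Low_d0 boars L1 and L4. MYH11, listed as the smooth muscle myosin heavy chain, ranged from 18.8 to 42.9 CPM in the Low_d0 boars and from 6.44 to 20.6 CPM in the High_d0 boars, the upper end again being L7. Transgelin (TAGLN), an actin cross-linking protein, ranged from 9.05 to 17.7 CPM and from 2.89 to 10.6 CPM in these groups, and calponin 1 (CNN1), an inhibitor of myosin ATPase, ranged from 0.661 to 1.01 CPM and from 0.184 to 0.786 CPM. The log2 fold changes were -0.88 (SE 0.47) for ACTA2, -1.17 (SE 0.35) for MYH11 and -0.98 (SE 0.36) for TAGLN. MYLK, whose product, myosin light chain kinase, starts smooth muscle contraction, hardly differed, with 66.8, 85.6, 105 and 63.4 CPM in L1 to L4, 55.3, 74.9, 76.3 and 72.3 CPM in L5 to L8 and a log2 fold change of -0.19 (SE 0.17).

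At day 0, 8 of the 10 genes passed the filter of at least 1 CPM in at least 4 boars, which CNN1 and LMOD1 did not. ELN passed only through the Low_d0 boars, since no High_d0 boar reached 1 CPM. The edgeR quasi-likelihood fit with Benjamini-Hochberg adjustment called 5 of the 8 lower in the high boars, and 4 of 7 without MYH11, where it called 15.8% of all 12979 tested genes lower and 20.7% in either direction. MYOCD and ELN, chosen for this decrease, are among the 5, and without them 3 of 6 were called, namely MYH11, DES and SMTN. The groups did not overlap in 4 of the 8, MYOCD and ELN again included, where 20% of all tested genes were lower without overlap. Because the choice of the genes used this contrast, nothing is read from these counts. Over all genes the calls were 2056 lower of 2682, and DESeq2 gave 2464 lower of 3922. The call rested on single boars, because none of the members tested and 1 gene in all were called without L3, and likewise without L6. Without L6 the edgeR adjusted p of the 5 genes lay between 0.0532 and 0.0719. Without L3 those of MYOCD, MYH11, DES and SMTN lay between 0.0504 and 0.112. ELN fell below the filter, and so was not tested, without L1, L2, L3 or L4. Without L1, 2 of the genes were called, and without L2, 3 were called, while 4 were called without L4, L5 or L8 and 7 without L7. In each of these reduced fits, the log2 fold change of MYOCD stayed between -2.41 and -1.96.

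Other genes of the contractile apparatus and of serum response factor signalling were mixed at day 0. Of 32 listed, 28 matched an identifier and 25 were tested, of which 6 were called lower and 1 higher, with a median log2 fold change of -0.36, against 0.03 over all tested genes. The 1 higher was ROCK1, a kinase that promotes contraction, named here after its value was seen (0.51). MRTFA, which encodes a second coactivator of serum response factor, had a log2 fold change of -0.86, and FLNA, the actin cross-linker filamin A, one of -1.98. Of the 10 tested elastic fibre genes other than ELN, none was called by edgeR, although 1 had an unadjusted p under 0.05, and the median was -0.28. The receptors and signals of peritubular cells gave the same counts over 8 tested genes, with a median of -0.11.

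Markers of other cell types are set beside these values, to be read against the 20.7% of all genes that edgeR called at day 0. Of 6 endothelial markers all lay below 0, with a median of -0.72, and 1 was called lower. Their summed level was 26.4 to 44.7 CPM in the Low_d0 and 12.3 to 38.1 CPM in the High_d0 boars. Of 6 fibroblast markers 1 was called lower (summed level 84.8 to 133 against 63.1 to 144 CPM), and of 5 pericyte and vessel wall markers none was called, 1 having an unadjusted p under 0.05 (27.1 to 64.1 against 22.4 to 58.7 CPM). The 6 Sertoli cell markers tested had a median of -0.07 (177 to 220 against 170 to 243 CPM), and the 6 Leydig cell markers one of 0.22 (1670 to 2130 against 462 to 4460 CPM). All 5 spermatocyte markers lay above 0, with a median of 0.50 and 1 called higher, and their summed level of 817 to 1060 CPM in the Low_d0 boars did not overlap with that of 1080 to 1730 CPM in the High_d0 boars. The 8 spermatid markers had a median of -0.07 with 3 called lower, 4 macrophage markers one of -0.01 with 1 called lower, and 4 spermatogonia markers one of -0.11 with none called by edgeR or at an unadjusted p under 0.05. Of the 7 matched striated muscle markers, 2 passed the filter and 1 of these was called lower, and the 7 together summed to 9.25 to 12.6 CPM in the Low_d0 and 4.51 to 7.91 CPM in the High_d0 boars, with NPPB at 0 and MYOG at no more than 0.144 CPM in all boars, and among the Sertoli cell markers AMH was at 0 in all boars. None of the 3 mesothelium markers matched an identifier. The part of these cell types in the lower levels of the 10 genes was not tested.

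**Figure D2:**
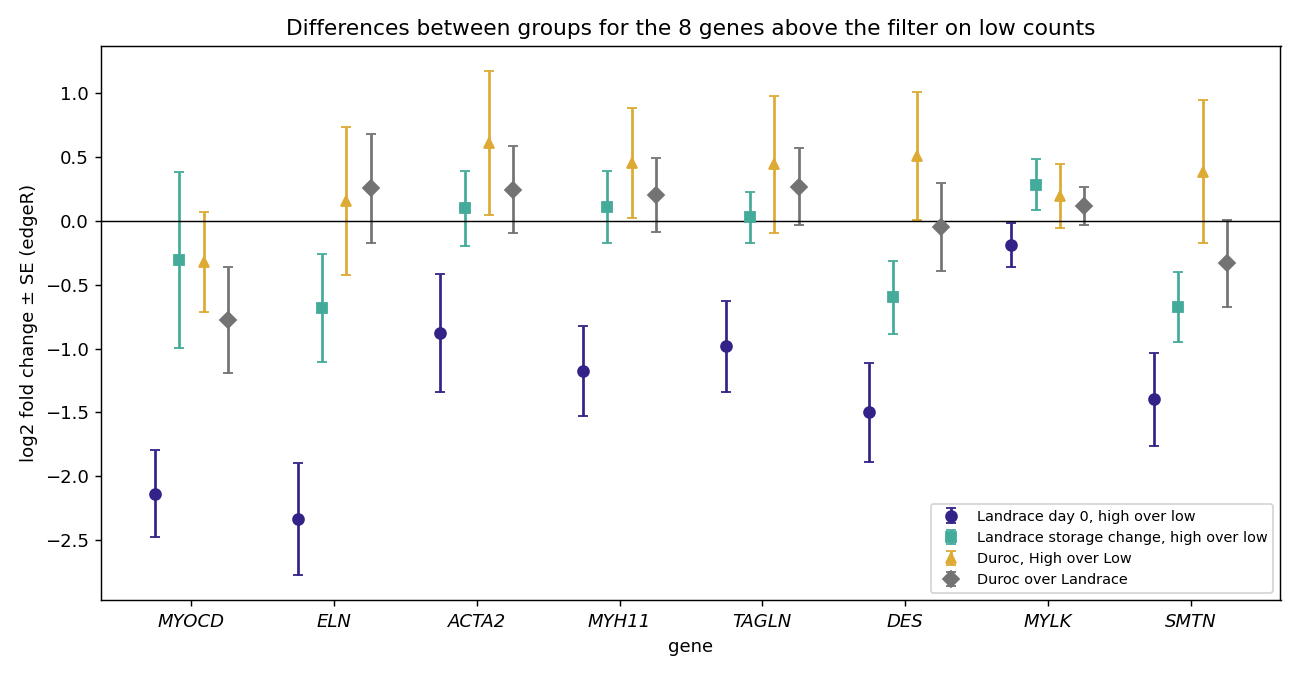
Log2 fold change with its standard error (edgeR) for the 8 genes above the filter in the 4 comparisons. The day 0 values (circles) lie between -2.34 and -0.19, while those of the storage contrast lie between -0.68 and 0.28, of the Duroc contrast between -0.32 and 0.61 and of the breed comparison between -0.78 and 0.27.

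The storage contrast asked whether the same genes differ between Landrace boars whose sperm changed much or little during storage. MYOCD was at 10.8, 13.5, 3.54 and 5.03 CPM in the Low_d4_0 boars L2, L9, L10 and L12 and at 2.08, 2.57 and 15.5 CPM in the High_d4_0 boars L7, L13 and L15. The high boars lay on both sides of the low group, since L15 exceeded every low boar and L7 and L13 lay below all of them. The log2 fold change was -0.30 (SE 0.69), with an adjusted p of 0.807 in the edgeR quasi-likelihood test, and it became -1.83 (adjusted p = 0.108) without L15 and 0.26 (adjusted p = 0.865) without L2 and L7, the boars shared with the day 0 contrast. SMTN came nearest to a difference, with 2.89, 2.25, 1.77 and 2.91 CPM in the low boars and 1.58, 1.65 and 1.36 CPM in the high boars. All high boars lay below all low boars, as in 8.72% of all genes tested, but the log2 fold change of -0.67 (SE 0.27) had an adjusted p of 0.243 by edgeR, and the exact permutation test over boars gave p = 0.0571, where 0.0286 is the smallest this design allows.

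DES (log2 fold change -0.60, SE 0.29) and ELN (-0.68, SE 0.42) also had negative values in the storage contrast, with overlapping groups and edgeR adjusted p of 0.267 and 0.353. ACTA2 (0.10), MYH11 (0.11), TAGLN (0.03) and MYLK (0.28) lay near 0, each with an adjusted p of 0.406 or more by edgeR. TAGLN was particularly even, at 8.42 to 11.8 CPM in the low boars and 8.17 to 10.9 CPM in the high boars. The High_d4_0 boar L13 held the highest MYLK level in Landrace, 126 CPM, while its MYOCD and ELN levels were 2.57 and 0.495 CPM. CNN1 ranged from 0.688 to 0.929 CPM in the low and from 0.719 to 0.786 CPM in the high boars, and LMOD1 from 0.181 to 0.439 and from 0.129 to 0.290 CPM.

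None of the 8 genes was called in the storage contrast by edgeR, DESeq2 or the likelihood ratio test, and 1, SMTN, had an unadjusted p under 0.05. Over all 12824 genes edgeR called 0%, while 19.8% had an unadjusted p under 0.05, the likelihood ratio test called 64 genes and DESeq2 116. The median over the 8 genes was -0.14, against 0.00 over all genes. Whether the day 0 and storage differences of a gene were unequal was not tested.

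Among the other lists, MRTFA had a log2 fold change of -0.86 in the storage contrast without overlap of the groups, and TPM1, which encodes a tropomyosin of the thin filament, one of 0.70, both with an adjusted p of 0.24 by edgeR. The fibroblast markers lay above 0 in 6 of 6 cases with a median of 0.88, and their summed level was 70.2 to 133 CPM in the low and 143 to 245 CPM in the high boars. RGS5, a pericyte marker, had a value of 1.17 without overlap of the groups and an adjusted p of 0.24 by edgeR. It was the highest of the 5 pericyte and vessel wall markers tested, which went both ways. Of these, 2 lay below 0, the median was 0.20 and the lowest value -0.88, and 1 was lower without overlap of the groups. The 8 spermatid markers had a median of -0.48. None of the genes of any list was called by edgeR, although 11 of the 25 contractile genes tested had an unadjusted p under 0.05. Of these 11, 4 were lower in the high boars, and the median of the list was 0.07. Of the 8 receptors and signals of peritubular cells tested, 5 had an unadjusted p under 0.05, none of them lower, with a list median of 0.60. The part of the listed cell types in the values of the 10 genes was not tested.

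The Duroc contrast compared boars labelled High and Low. None of the 8 genes was called, each having an adjusted p of 1 in the edgeR quasi-likelihood test and none an unadjusted p under 0.05, and over all 13043 genes 0% were called and 1.21% had an unadjusted p under 0.05. The likelihood ratio test and DESeq2 called none of the 8 either. In each of the 8 genes the SD between boars of either label exceeded the difference between the label means. TAGLN was at 22.2, 5.02, 7.05, 9.06 and 18.1 CPM in the High boars D1 to D5 and at 3.84, 7.46 and 15.8 CPM in the Low boars D6, D7 and D9. The means were 12.3 ± 7.46 CPM (SD, n = 5) and 9.03 ± 6.13 CPM (SD, n = 3), and D1, D5 and D9 stood high and D2 and D6 low, whatever their label.

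ACTA2 followed a similar order of boars, with 39.5, 9.93, 20.8, 13.8 and 45.1 CPM in the High boars and 7.08, 11.2 and 32.5 CPM in the Low boars. Its log2 fold change of 0.61 (SE 0.57) was the largest of the 8 in the edgeR fit. It rested on single boars, since it was 1.50 without D9 and 0.24 without D6. MYOCD had a log2 fold change of -0.32 (SE 0.39), and the exact permutation test over boars gave p = 0.411, where 0.0179 is the smallest this design allows. For the other genes the permutation p lay between 0.357 and 0.875. MYLK was at 144 CPM in D1 and between 65.6 and 92.1 CPM in the remaining Duroc boars.

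No gene of any other list was called in the Duroc contrast by edgeR either, 1 elastic fibre gene and 1 receptor having an unadjusted p under 0.05. The receptor was EDNRA, the endothelin receptor of smooth muscle, with a log2 fold change of 1.08 (unadjusted p = 0.0107, adjusted p = 1 by edgeR). MYL9, a regulatory myosin light chain, had a value of 1.54 and RGS5 one of 0.65, both with an adjusted p of 1. The fibroblast and endothelial markers had medians of 0.43 and 0.59, the Sertoli and Leydig cell markers medians of 0.16 and 0.14, and the spermatid markers one of 0.18. The summed level of the endothelial markers was 22.7 to 47.3 CPM in the Low and 29.7 to 61.5 CPM in the High boars.

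The breed comparison set the 8 Duroc against the 13 Landrace boars. None of the 8 genes was called by the edgeR quasi-likelihood test, DESeq2 or the likelihood ratio test, and none had an unadjusted p under 0.05, where edgeR called 2.88% of 13126 genes and 12.3% had an unadjusted p under 0.05. The largest difference was that of MYOCD, at 4.08 ± 1.64 CPM (SD, n = 8) in Duroc and 6.99 ± 5.26 CPM (SD, n = 13) in Landrace, a log2 fold change of -0.78 (SE 0.41, adjusted p = 0.491 by edgeR). The exact permutation test over boars gave p = 0.325. The Duroc range of 1.96 to 6.50 CPM lay within the Landrace range of 1.44 to 15.5 CPM. For the other genes the log2 fold change was between -0.33 (SMTN) and 0.27 (TAGLN), with permutation p values of 0.33 to 0.967.

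One gene of the contractile list differed between the breeds. CNN2, a calponin that unlike CNN1 is also found in non-muscle cells, was at 8.38 ± 1.87 CPM (SD, n = 8) in Duroc and 3.47 ± 1.02 CPM (SD, n = 13) in Landrace, without overlap, and its log2 fold change was 1.27 (SE 0.18, adjusted p = 8.83e-05 by the edgeR quasi-likelihood test). It was the 1 called gene of 26 tested in that list, and leaving out any boar kept the value between 1.20 and 1.35. CNN1, its muscle paralog, was at 0.817 ± 0.421 CPM (SD, n = 8) in Duroc and 0.702 ± 0.247 CPM (SD, n = 13) in Landrace. No elastic fibre gene (11 tested) and no receptor or signal of peritubular cells (8 tested) was called or had an unadjusted p under 0.05. The pericyte markers summed to 40.0 to 122 CPM in Duroc and 22.3 to 64.6 CPM in Landrace, with RGS5 at a log2 fold change of 0.92 (adjusted p = 0.115 by edgeR). RGS5 made up most of this sum, with a median of 43.1 CPM over all boars against 5.04 CPM or less for each other marker. Of the 5 pericyte and vessel wall markers tested, 1 lay below 0 (-0.33), and the median log2 fold change was 0.43. Breed and whatever else differed between the boars of the breeds cannot be told apart.

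**Figure D3:**
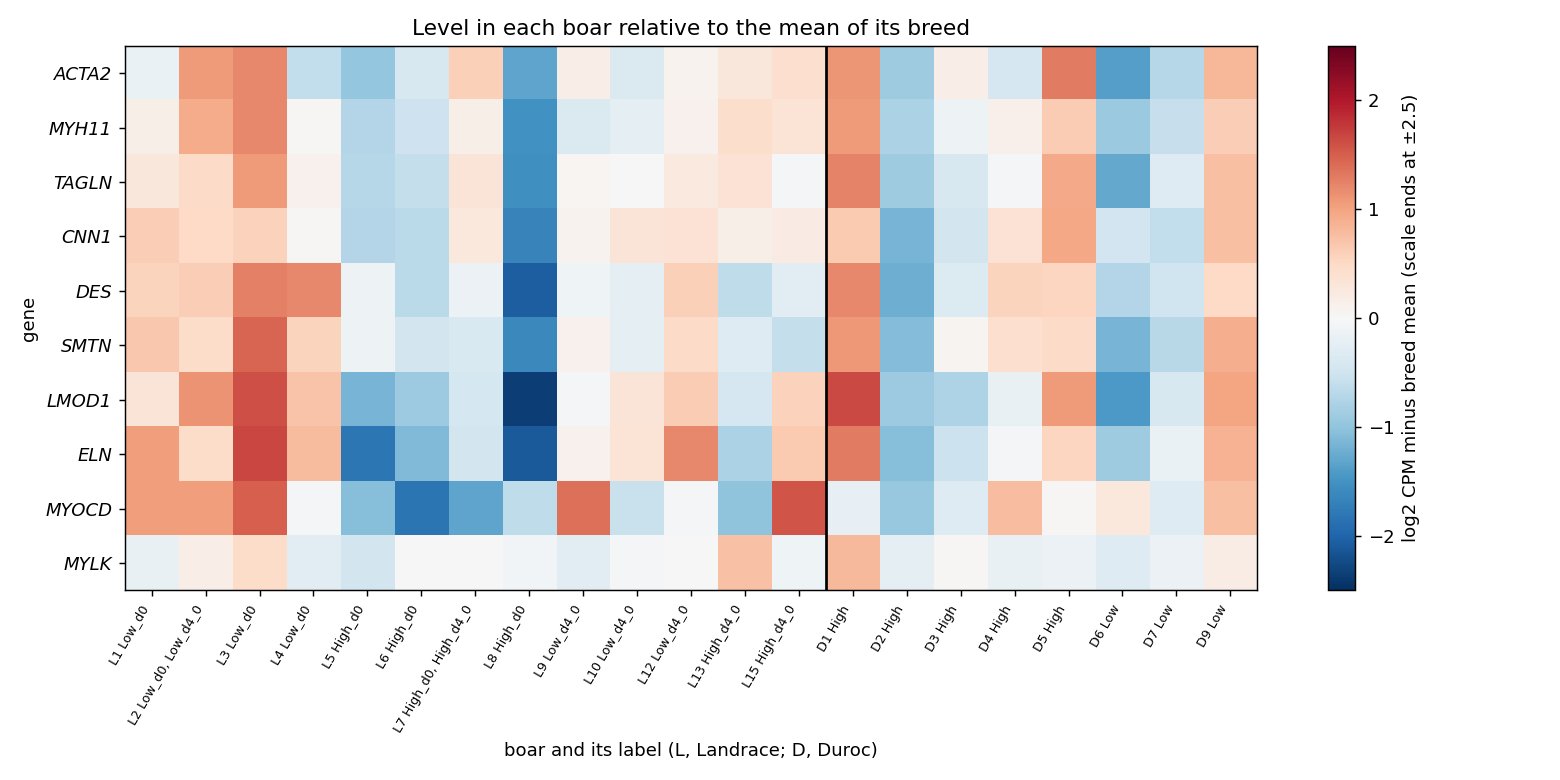
Level of each gene (rows) in each boar (columns, with the boar's label) as log2 CPM minus the mean of its breed, from blue (below) to red (above). Columns L3, D1, D5 and D9 are mostly red and L8, D2 and D6 mostly blue, while MYOCD and MYLK leave this pattern, for example in L15 and L13.

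The differences from boar to boar were shared by most of the genes. L8 was among the 3 lowest boars in 8 of the 10 genes, and L3 and D1 were each among the 3 highest in 9. The exceptions were MYOCD and MYLK in L8, CNN1 in L3 and MYOCD in D1. D1 stood in rank 14 of 21 for MYOCD, at 3.31 CPM, while it ranked first for ELN, MYH11, TAGLN and MYLK. L8 was also the lowest boar for genes of other cell types, such as PECAM1, CDH5, CYP11A1 and CYP17A1, and the highest for ROCK1 and RHOA. How often these boars stood at the ends of the range over all genes was not determined.

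In Duroc, whose levels had no part in the choice of the genes, 45 pairs of genes were correlated across the 8 boars on log2 CPM. Among the 8 genes other than MYOCD and MYLK, Pearson's r ran from 0.802 to 0.990 over 28 pairs and Spearman's rho from 0.786 to 1.0. All 28 had an adjusted p of 0.0344 or less in exact permutation tests over 45 pairs, and the smallest r was 0.794 after the 2 boars farthest from the median were left out. The share of all gene pairs that correlate as closely in Duroc was not determined. The 28 values are therefore not shown to be particular to these genes. The closest pair was TAGLN and LMOD1, with r = 0.990, rho = 1.0 and an exact permutation p of 2.48e-05, the smallest possible (adjusted p = 0.00112). The r of this pair was 0.981 without the 2 farthest boars. MYLK correlated with the other 8 genes at r = 0.484 (CNN1, adjusted p = 0.265 in the exact permutation test) to 0.782 (ELN, adjusted p = 0.0143). The r with ELN fell to 0.32 without the 2 farthest boars.

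MYOCD did not follow this pattern in Duroc. Its r with the 9 other genes lay between 0.00144 (MYLK) and 0.654 (CNN1), and its rho between 0.0476 and 0.619. None passed, since the smallest exact permutation p was 0.0858, and the adjusted p over the 9 genes were 0.652 or more. Without D2 and D4, the boars farthest from the median of MYOCD, r lay between -0.109 and 0.431.

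In Landrace, where MYOCD and ELN were picked on 8 of the 13 boars, the correlations are given without a test. ACTA2, MYH11, CNN1 and TAGLN formed pairs with r of 0.773 to 0.943, and DES, SMTN, ELN and LMOD1 formed pairs with r of 0.798 to 0.945. Pairs between these sets reached down to r = 0.530 for ACTA2 and DES. That value fell to -0.0222 without the 2 boars farthest from the median of ACTA2, so it rested on them. MYOCD correlated with ELN at r = 0.702 (rho = 0.709) and with LMOD1 at r = 0.665 (rho = 0.742), and with ACTA2, MYH11, CNN1, TAGLN, DES and SMTN at r of 0.481 to 0.524. MYLK was close to uncorrelated with MYOCD (r = -0.000623) and with DES (r = 0.0275). All these points share the normalization of their library.

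**Figure D4:**
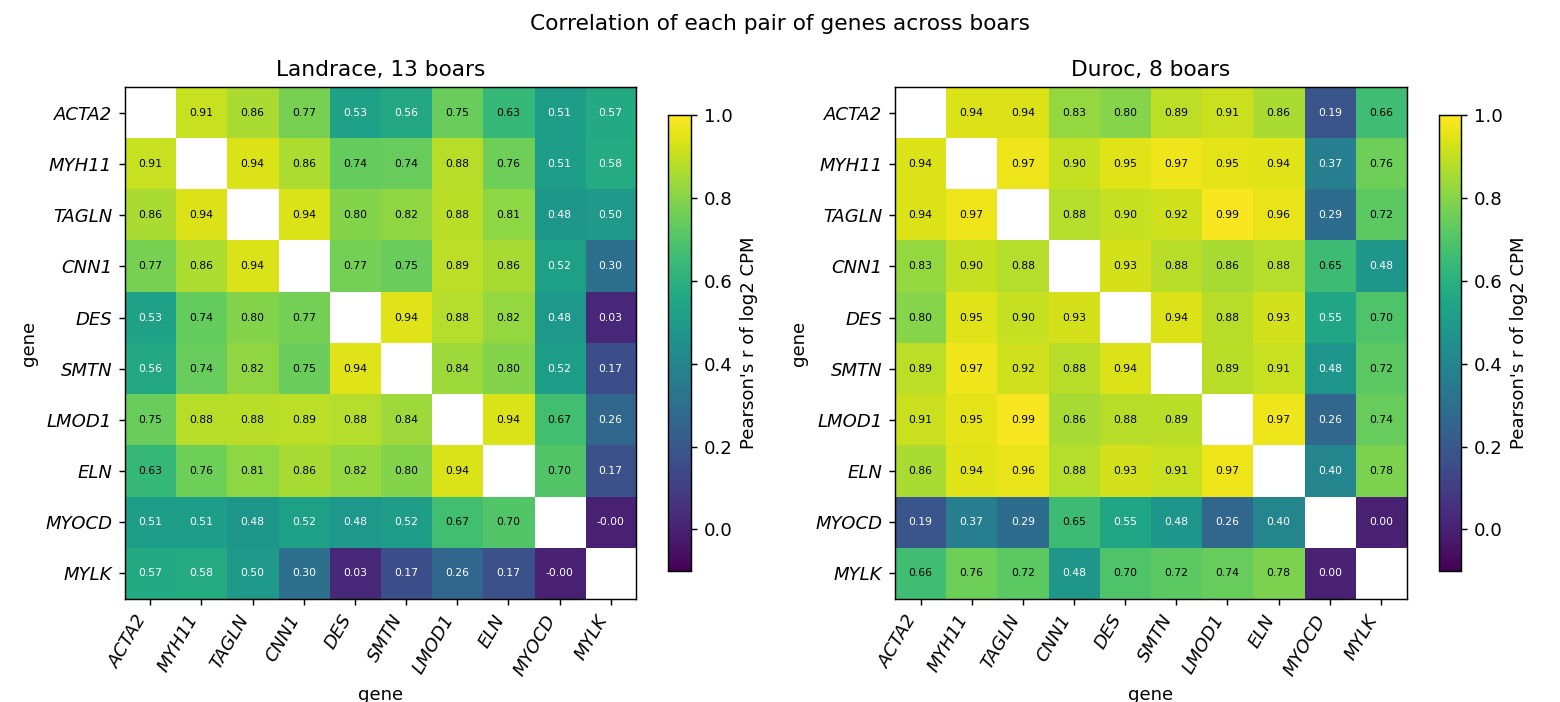
Pearson's r of log2 CPM for each pair of the 10 genes across the 13 Landrace (left) and 8 Duroc boars (right), with colour and number giving r. The 8 genes from ACTA2 to ELN form a block of r between 0.530 and 0.945 in Landrace and between 0.802 and 0.990 in Duroc, and in Duroc all values of MYOCD and MYLK lie below that block. In Landrace they reach into it, up to 0.702 for MYOCD and ELN.

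The genes most like the group as a whole were sought among the 13126 genes tested in the breed comparison, by the r of each with the mean standardised level of the 8 members among them, over 21 boars with each breed centred. Leaving out the members, FLNA (r = 0.968), TNS3 (0.963), which encodes a focal adhesion protein, LAMB2 (0.961), which encodes a laminin chain of basement membranes, and DTX2 (0.957) were among the closest. Though part of that mean, ELN ranked 176 and DES 322 in this order, so many other genes resembled the group as closely. MYOCD ranked 3457 (r = 0.575) and MYLK 3308 (r = 0.591). The genes most like MYOCD itself were PLA2G4D (r = 0.846), the unnamed ENSSSCG00000039915 (0.835), TNFRSF21 (0.812), CATSPER1 (0.807), which encodes a subunit of the sperm calcium channel, and CRABP2 (0.797). ELN ranked 491 (r = 0.644) in likeness to MYOCD, SMTN 2819, DES 2715 and MYLK 6430.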

How the data were processed

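Testis RNA of 21 boars was sequenced with a stranded mRNA kit. The files, 1 per boar, hold unnormalized read counts for each gene, which the authors made by trimming with Trimmomatic 0.36, aligning with STAR to Sscrofa 11.1 and counting with HTSeq in reverse-stranded mode on Ensembl genes. Reads outside genes, 21.5% to 30.2% of the total of each library, were left out. Symbols came from a table of Ensembl names (14857 of 25880 identifiers), and positions from RefSeq on Sscrofa11.1. Genes close in sequence can share reads.

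Counts were analysed with edgeR 4.0.16 in R 4.3.3, with TMM normalization, at least 1 CPM in at least 4 libraries (8 for the breed comparison), the quasi-likelihood test and Benjamini-Hochberg adjustment over all genes tested, at a threshold of 0.05. The likelihood ratio test, DESeq2 1.42.0, other filters and scaling, and leaving out each boar were alternatives. Log2 CPM used a prior count of 2. Permutation tests were two-sided and exact (SciPy 1.17.1). The fits were tested on simulated data. The 10 genes, the lists and the tests were chosen with earlier results of these data known. Named were all 10 genes, up to 3 genes of each list by smallest p, genes used to check a cell type, and the 5 most like the group (1 of them is not reported here) or MYOCD, with the result of each list given as counts and medians. Not used here were hyperactivity values of single boars.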

Additional observations from a re-analysis of the deposited data

Results flagged for a closer look

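In groups of 4 to 10 boars, 3 values lay apart from the rest by Dixon's criterion, of 50 groups examined, where chance gives 2.5. MYLK was at 144 CPM in D1, against 69.0 to 83.6 CPM in the 4 other Duroc High boars and 65.6 to 92.1 CPM in all other Duroc boars, which accounts for 2 of the 3. SMTN was at 5.80 CPM in L3, against 2.89 to 3.35 CPM in the other Low_d0 boars. D1 had the smallest library of the series, with 41358671 counts, and its part in the value was not tested.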

How the results depend on the processing

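Leaving out each boar in turn gave 1 to 3764 called genes and 0 to 7 called members at day 0 (2682 and 5 with all boars), where the fewest, 1 and 0, came without L3 or L6, 0 to 2 called genes in the storage contrast and 0 to 2 in the Duroc contrast. In the storage contrast, where 0 genes were called, the likelihood ratio test called 64 genes, DESeq2 116, and no filter or edgeR's own filter 1 each. No alternative called a member in the storage, Duroc or breed comparison. Values near 0 changed sign when a boar was left out, with ranges in the storage contrast of -1.83 to 0.13 for MYOCD, -0.068 to 0.45 for ACTA2, -0.03 to 0.46 for MYH11, -0.035 to 0.15 for TAGLN and -0.002 to 0.44 for MYLK, in the Duroc contrast of -0.30 to 0.77 for ELN and -0.081 to 0.35 for MYLK, and in the breed comparison of -0.26 to 0.092 for DES and -0.032 to 0.18 for MYLK. Without L2 and L7 the storage value of MYOCD was 0.26, and with the High or Low label as a covariate the breed value of DES was 0.21. The correlation of MYOCD with MYLK was -0.0694 in Duroc under relative log expression scaling, and -0.109 in Duroc and 0.0337 in Landrace without the 2 farthest boars. The cause of these changes was not tested. ELN fell below the filter in 4 of the 8 day 0 fits with a boar left out. Without a filter, LMOD1 and CNN1 had day 0 values of -2.37 and -0.95. The groups held 3 to 5 boars, and ELN, CNN1 and LMOD1 few reads, so differences smaller than the spread between boars could not be detected. No paired analysis was possible because each boar has 1 library and the labels carry no replicate numbers that pair boars across groups.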
